A study of Mus musculus with 8 samples.

Results

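The interferon-induced transmembrane (IFITM) genes Ifitm1, Ifitm2, Ifitm3 and Ifitm6 were followed through an acute IFNα response in mouse hematopoietic stem and progenitor cells. The members were taken by their symbols, which gave 4 of the 27998 genes in the count tables. The question was how the level that stem cells hold at baseline compares with the level that IFNα induces, per mouse and per lineage. Cells came from 16 wildtype mice of 12–14 weeks, 4 per time point. IFNα was injected under the skin at 50000 IU for each 20 g, and marrow was taken 3, 24 or 72 h later, whereas control mice were given 100 μl of PBS. LK cells (Lin- cKit+ bone marrow cells) were sorted, and LK CD150+ CD48- CD34- cells, the gate for hematopoietic stem cells (HSCs), were added. All 4 mice of 1 time point were labelled with hashtag antibodies and run in a single droplet library, so that the effects of the time point and of its library cannot be told apart.

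IFITM proteins are small membrane proteins that hinder the fusion of enveloped viruses with the membranes of the cell. IFITM1 resides largely at the cell surface, whereas IFITM2 and IFITM3 cycle into endosomes, where they act on viruses that enter through them. Interferon induces several members through the transcription factor complex ISGF3, which binds the interferon-stimulated response element (ISRE). Stem cells of several tissues are known to carry part of the interferon-stimulated genes (ISGs), IFITM genes among them, without any interferon being added.

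All members lie within 63088 bp on chromosome 7 (GRCm38, i.e. mm10, with GENCODE vM21 gene models). Ifitm2 (ENSMUSG00000060591) spans chr7:140954837-140955987 on the minus strand, Ifitm1 (ENSMUSG00000025491) chr7:140967221-140969825 on the plus strand, Ifitm3 (ENSMUSG00000025492) chr7:141009586-141010770 on the minus strand and Ifitm6 (ENSMUSG00000059108) chr7:141015699-141017924 on the minus strand. The sequences around the starts of the 3 members with high counts are shown. RefSeq's promoter windows on GRCm38.p6 (250 bases before to 50 bases after a gene's start) were searched on both strands for the ISRE core (GAAA, any 2 bases, then GAAA) and for the core TTCNNNGAA of the gamma-activated sequence (GAS). The printed stretches are the parts of these windows upstream of the GENCODE start of Ifitm2 and Ifitm3 and outside the exons of Ifitm1, where the stretch is intronic to a longer GENCODE transcript. They lie at chr7:140967826-140968027 (plus strand) for Ifitm1, chr7:140955988-140956211 (minus strand) for Ifitm2 and chr7:141010771-141010994 (minus strand) for Ifitm3, and are written 5′ to 3′ on the gene's strand with the ISRE core in capitals. The last sequence holds the first 30 transcribed bases of Ifitm3 from the RefSeq start, chr7:141010715-141010744 on the minus strand.
Ifitm1: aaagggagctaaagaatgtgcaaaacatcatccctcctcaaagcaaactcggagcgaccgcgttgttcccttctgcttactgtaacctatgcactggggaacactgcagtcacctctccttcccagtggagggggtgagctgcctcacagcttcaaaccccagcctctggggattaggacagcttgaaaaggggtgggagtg
Ifitm2: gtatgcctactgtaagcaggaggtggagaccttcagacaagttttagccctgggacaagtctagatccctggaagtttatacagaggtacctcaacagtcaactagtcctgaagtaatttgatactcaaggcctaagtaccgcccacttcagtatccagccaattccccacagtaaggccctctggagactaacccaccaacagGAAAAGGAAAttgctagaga
Ifitm3: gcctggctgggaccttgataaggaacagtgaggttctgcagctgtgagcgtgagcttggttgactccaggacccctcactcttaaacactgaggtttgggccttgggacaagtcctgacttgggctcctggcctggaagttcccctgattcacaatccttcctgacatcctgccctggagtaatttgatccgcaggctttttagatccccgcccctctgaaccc
Ifitm3, first transcribed bases: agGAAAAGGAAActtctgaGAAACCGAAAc
The Ifitm2 window held 1 ISRE core, at bases -46 to -37 from the RefSeq start. The Ifitm3 window held 2, at bases 3 to 12 and 20 to 29 after it, and 1 GAS core at bases 14 to 22, which overlaps the second ISRE core. The Ifitm1 window held no match to either core, and the Ifitm6 window held only a GAS core at bases -10 to -2. Of all 32851 promoter windows of 300 bases, 1131 (3.44%) held the ISRE core and 2726 (8.3%) the GAS core. These are matches of letters only, and their part in the responses was not tested. The GENCODE start lies 26 bases upstream of the RefSeq start for Ifitm2 and Ifitm3, and 855 and 1032 bases away for Ifitm1 and Ifitm6.

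After removal of hashtag multiplets, negatives and cells of low quality, 10046 cells remained, between 1661 and 3462 per time point, with a median of 12017 (3 h) to 18964.5 (control) unique molecular identifiers (UMIs, the count of captured transcripts) per cell. A mouse contributed 1102706 to 26446327 UMIs. Control mouse 4 had only 58 cells, 6 of them HSC-like, and was left out of groups in which it had fewer than 10 cells, while the other mice had 330 to 1240 cells. At most 1 cell barcode was shared between any 2 libraries. Cells were grouped by clustering the control cells without any Ifitm gene or listed ISG (133 genes in all), and treated cells took the label of their nearest control cells. Groups carry a cell type name only where fixed markers gave one: HSC-like (cluster 9), myeloid progenitor-like (clusters 2, 4 and 8), erythroid progenitor-like and megakaryocyte (MK) progenitor-like. The other groups compared stayed unnamed and are called by their leading genes, the Hlf-Dntt clusters with markers of both HSCs and lymphoid-primed progenitors, the Flt3-Cpa3 cluster and the Csrp3 clusters. Statements on 7 groups cover only these and the named groups above. Cluster 10, led by mitosis genes such as Mki67 (149 control cells), was not compared. Neither were cluster 13, led by Cd74 (35 control cells), and cluster 14, named basophil, mast cell and eosinophil progenitor-like by its markers (18 control cells). All 12 HSC markers were detected in HSC-like cells, with a summed level of 2084 to 2267 CPM (UMIs per 1000000 UMIs) in control mice and 1659 to 1871 CPM at 3 h. The 10 monocyte markers in these cells summed to 362 to 516 CPM in control and 593 to 627 CPM at 3 h. That list includes Ms4a6b, one of the listed ISGs, and the part of these cells in the results was not tested. Markers of mature neutrophils summed to at most 6.58 CPM and those of macrophages to at most 25.0 CPM there. Other lists were well detected in control HSC-like cells. Markers of myeloid progenitors summed to 1216 to 1450 CPM, of erythroid progenitors to 812 to 1274 CPM and of MK progenitors to 403 to 576 CPM. Those of lymphoid-primed progenitors summed to 263 to 807 CPM and of basophil, mast cell and eosinophil progenitors to 90.1 to 1012 CPM.

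The kept cells held 213781 UMIs of Ifitm3, 158638 of Ifitm2, 94253 of Ifitm1 and 561 of Ifitm6. Levels are CPM of the counts summed over the cells of a mouse and group, with library sizes scaled by TMM factors. Values given for a numbered cluster, values called pooled and limits on counts of 0 use library size alone. Because the libraries count UMIs at transcript ends, the number does not scale with transcript length, though the capture of each transcript can differ. Of all 60-base words in the last 400 bases of the transcripts, 20.2% were shared with another gene for Ifitm2 (Gm45717, which overlaps it on the same strand, and pseudogenes) 7.04% for Ifitm3 (Gm7676 and Ifitm1) and 0% for Ifitm1 and Ifitm6. Reads within such stretches cannot be assigned to 1 gene, so the levels of Ifitm2 and Ifitm3 carry that uncertainty.

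In control mice, Ifitm1 and Ifitm3 were highest in HSC-like cells and lower in the committed progenitors, whereas the groups lay within 1.72-fold of each other for Ifitm2. Ifitm1, the member at the cell surface, reached 1139, 1168 and 999 CPM in the 3 control mice with enough HSC-like cells (1102 ± 90.4, SD). The Csrp3 clusters held as much (1087 ± 70.6 CPM, n = 3), followed by the Hlf-Dntt clusters (684 ± 57.3, n = 4), the Flt3-Cpa3 cluster (384 ± 63.3, n = 3), MK (263 ± 31.4, n = 3), erythroid (116 ± 108, n = 3) and myeloid progenitor-like cells (98.0 ± 19.2, n = 4). The ranges of HSC-like cells and the Csrp3 clusters overlapped, as did those of MK and erythroid and of erythroid and myeloid progenitor-like cells, while the other neighbours in this order were apart. The wide spread in erythroid progenitor-like cells came from control mouse 2 with 241 CPM against 52.7 and 53.5 CPM in the other two.

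Ifitm3, which guards the endosomal route, stood at 1215, 1088 and 957 CPM in the HSC-like cells of the control mice (1087 ± 129). Below came the Hlf-Dntt clusters (953 ± 326, n = 4), MK progenitor-like cells (832 ± 204, n = 3), the Flt3-Cpa3 cluster (515 ± 75.8, n = 3), myeloid progenitor-like cells (327 ± 22.3, n = 4), the Csrp3 clusters (305 ± 42.6, n = 3) and erythroid progenitor-like cells (154 ± 10.7, n = 3). The first 3 groups overlapped with each other, and the Csrp3 clusters with myeloid progenitor-like cells. The mean of the Hlf-Dntt clusters rests partly on control mouse 4, whose 12 cells gave 1438 CPM, and was 791 ± 55.0 CPM over the other 3 mice. The highest group exceeded the lowest 11.2-fold for Ifitm1 and 7.04-fold for Ifitm3.

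Ifitm2 differed 1.72-fold between its highest group, MK progenitor-like cells (934 ± 117 CPM, n = 3), and its lowest, erythroid progenitor-like cells (542 ± 72.5 CPM, n = 3). HSC-like cells held 652, 766 and 661 CPM (693 ± 63.4), next to lowest with TMM factors, but their log2 difference from myeloid progenitor-like cells turned from -0.16 to 0.09 with library size alone. Ifitm6 showed another pattern. It gave 0 UMIs in the 177 control HSC-like cells, which allows a level of up to 1.64 CPM and up to 1.69% of cells with an Ifitm6 UMI (3 counts, counting error only, and no limit on the cells that express the gene), and 0 UMIs in erythroid and MK progenitor-like control cells. Its control level was 5.37 ± 1.70 CPM in myeloid progenitor-like cells (n = 4) and 3.40 ± 1.52 CPM in the Flt3-Cpa3 cluster (n = 3). A cluster of 35 control cells led by Cd74 and H2-Aa, genes of antigen presentation, held 30 Ifitm6 UMIs, a pooled 65.3 CPM, and entered no test since it had too few cells per mouse.

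**Figure D1:**
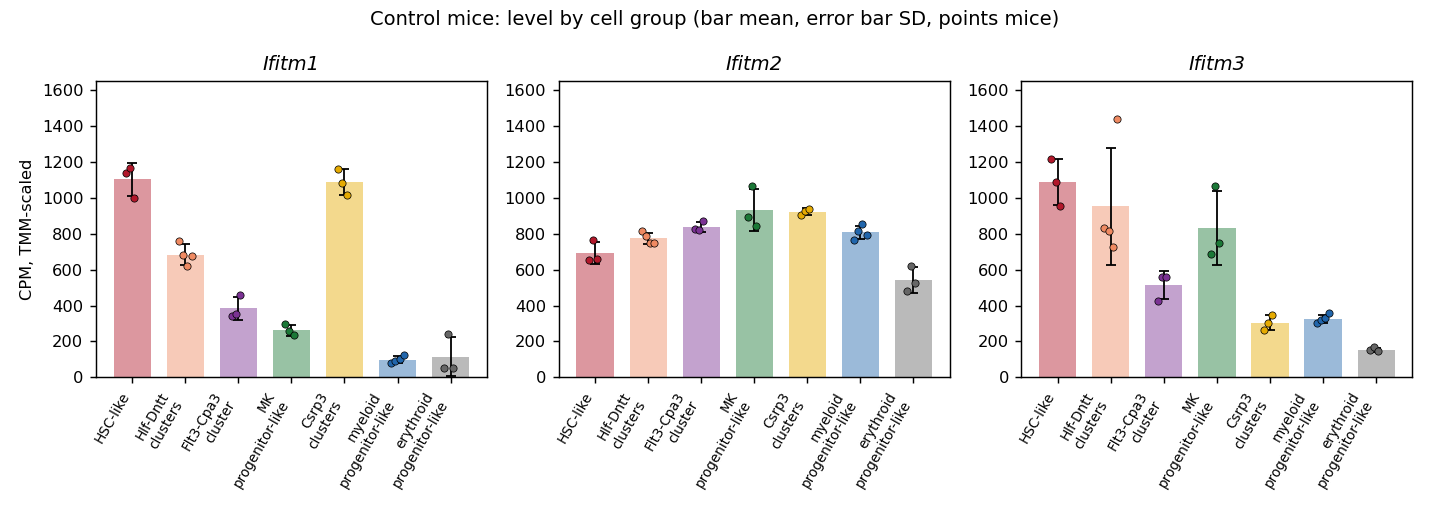
Level of Ifitm1, Ifitm2 and Ifitm3 in control mice by cell group (vertical axis, CPM with TMM-scaled library sizes; bars, mean; error bars, SD; points, mice). Ifitm1 ran from 1102 CPM in HSC-like cells to 98.0 CPM in myeloid progenitor-like cells and Ifitm3 from 1087 to 154 CPM, while Ifitm2 stayed between 542 and 934 CPM.

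Tested within the control mice (edgeR's quasi-likelihood test with the mouse as a block, 23 sums, Benjamini-Hochberg adjustment over 10338 genes), 8 differences between HSC-like cells and another group were called, which needs an adjusted p below 0.05 together with a log2 fold change beyond 1 in size, and all of them were higher in HSC-like cells. Ifitm1 was higher than in myeloid progenitor-like cells by 3.68 ± 0.21 on the log2 scale (SE, adjusted p = 4.25e-19), than in erythroid progenitor-like cells by 3.34 ± 0.23, than in MK progenitor-like cells by 2.15 ± 0.22 and than in the Flt3-Cpa3 cluster by 1.59 ± 0.20. Ifitm3 was higher by 2.83 ± 0.12 than in erythroid (adjusted p = 1.37e-23), by 1.90 ± 0.10 than in myeloid progenitor-like cells, by 1.92 ± 0.12 than in the Csrp3 clusters and by 1.17 ± 0.11 than in the Flt3-Cpa3 cluster. Against the Hlf-Dntt clusters neither reached the fold threshold, with log2 differences of 0.74 ± 0.19 (Ifitm1, adjusted p = 8.01e-03) and 0.46 ± 0.10 (Ifitm3, adjusted p = 2.06e-03). The same held for Ifitm3 against MK progenitor-like cells (0.49 ± 0.11, adjusted p = 3.01e-04), and Ifitm1 against the Csrp3 clusters passed neither threshold (0.10 ± 0.20, adjusted p = 0.772). The call of Ifitm3 against the Flt3-Cpa3 cluster was lost, at 0.88, without control mouse 1. It was also lost with stem cells set by markers (0.95) and with the Hlf-Dntt clusters added to HSC-like cells (0.78). Ifitm2 reached the fold threshold in no comparison, with log2 differences from -0.35 to 0.35. Of all genes tested, 20.6% were called higher in HSC-like than in myeloid, 26.9% than in erythroid and 11.9% than in MK progenitor-like cells, 13.6% than in the Flt3-Cpa3 cluster, 10.6% than in the Csrp3 clusters and 1.89% than in the Hlf-Dntt clusters. The groups were set by the expression of the 500 most variable genes in these same control cells, so these shares are no neutral background.

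Ifitm3 rose in all 7 groups at 3 h after IFNα. In HSC-like cells its level was 5046, 5076, 5502 and 4964 CPM at 3 h, 2050.5, 2427, 2179 and 2482 CPM at 24 h and 819, 878, 1011 and 1014 CPM at 72 h. No mouse at 3 h or 24 h overlapped the control mice, and at 72 h the groups overlapped. The log2 fold change was 2.26 ± 0.08 at 3 h (SE, adjusted p = 7.08e-25), 1.06 ± 0.07 at 24 h (adjusted p = 9.31e-14) and -0.22 ± 0.08 at 72 h (adjusted p = 0.160). The 24 h call lies close to the fold threshold and was lost, at 0.98, without control mouse 3. Ifitm3 was the only member called in HSC-like cells at 3 h and at 24 h, where 4.76% and 0.449% of all genes tested rose, and no member was called at 72 h (0.321%). Among the 371 genes that rose in HSC-like cells at 3 h, Ifitm3 ranked 131 by fold change.

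The largest log2 fold changes were found in the 2 groups with the lowest control means of Ifitm3. Myeloid progenitor-like cells had a smaller one, though their control mean (327 CPM) was close to that of the Csrp3 clusters (305 CPM). Erythroid progenitor-like cells went from 149.8, 167 and 147 CPM in control to 1740, 2063, 2491 and 2474.5 CPM at 3 h, a log2 fold change of 3.92 ± 0.12 (adjusted p = 4.78e-21). The Csrp3 clusters went from 263, 304 and 348 CPM to 4684, 4371, 4559 and 4779 CPM, a log2 fold change of 3.95 ± 0.09 (adjusted p = 3.69e-31). These means are 14.2 and 15.1 times those of control mice, against 4.74 times in HSC-like cells. The log2 fold changes were 2.28 ± 0.08 in the Hlf-Dntt clusters, 2.37 ± 0.07 in the Flt3-Cpa3 cluster, 2.51 ± 0.06 in myeloid and 1.95 ± 0.10 in MK progenitor-like cells. In the same comparisons, 4.12% (erythroid), 4.72% (Csrp3), 4.03% (Hlf-Dntt), 3.57% (Flt3-Cpa3), 3.4% (myeloid) and 3.4% (MK) of all genes tested rose. The gain in CPM had another order, since HSC-like cells gained 4060.3 CPM, the Csrp3 clusters 4293 CPM and myeloid progenitor-like cells 1457 CPM. Cluster 10, not tested, held 611 ± 102 CPM of Ifitm3 in control and 3148 ± 298 CPM at 3 h, without TMM factors.

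At 24 h, Ifitm3 was still called in 6 of 7 groups, with log2 fold changes of 1.06 ± 0.08 in the Hlf-Dntt clusters, 1.31 ± 0.07 in the Flt3-Cpa3 cluster, 1.29 ± 0.09 in the Csrp3 clusters, 1.92 ± 0.06 in myeloid and 1.90 ± 0.11 in erythroid progenitor-like cells. The call in the Hlf-Dntt clusters was lost, at 0.98, without control mouse 3. MK progenitor-like cells fell short of the fold threshold (0.82 ± 0.09, adjusted p = 4.50e-08), and passed it at 1.04 without control mouse 2. The shares of all genes that rose at 24 h were 0.543% (Hlf-Dntt), 0.777% (Flt3-Cpa3), 1.06% (myeloid), 1.8% (erythroid), 0.663% (Csrp3) and 0.477% (MK). At 72 h no group was called, with log2 fold changes from -0.22 to 0.22 and background shares of 0.372% (Hlf-Dntt), 0.607% (Flt3-Cpa3), 0.703% (myeloid), 0.585% (erythroid), 0.49% (Csrp3) and 0.428% (MK). Only myeloid progenitor-like cells passed the p threshold at 72 h (0.22 ± 0.06, adjusted p = 0.0176), and the value was 0.05 without cluster 8 (adjusted p = 0.709). Over all kept cells of a mouse, Ifitm3 went from 459.65 ± 37.0 CPM in control to 3067 ± 185 at 3 h, 1254 ± 53.8 at 24 h and 505 ± 15.6 at 72 h (n = 4 each). It was called at 3 h (2.76 ± 0.05, adjusted p = 4.67e-22) and at 24 h (1.47 ± 0.05, adjusted p = 1.86e-16), where 5.22% and 1.46% of all genes rose. At 72 h it passed the p threshold without reaching the fold threshold (0.16 ± 0.05, adjusted p = 0.0113).

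**Figure D2:**
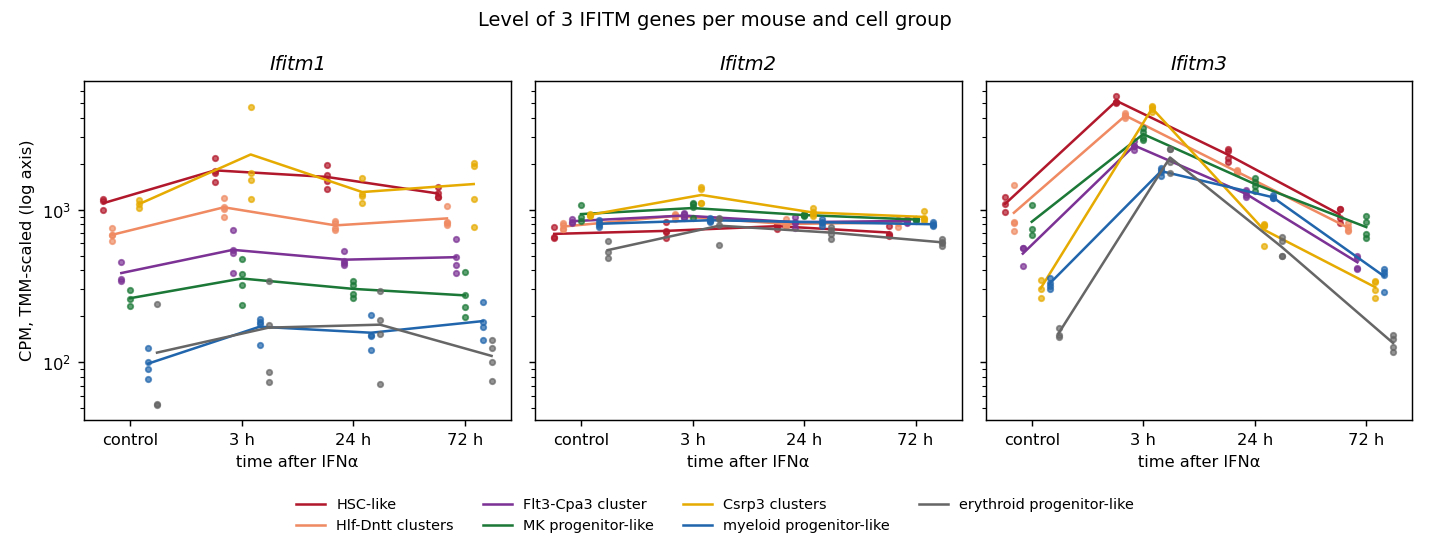
Level of Ifitm1, Ifitm2 and Ifitm3 by time after IFNα and cell group (vertical axis, CPM with TMM-scaled library sizes, log axis; points, mice; lines, means). Ifitm3 rose in all 7 groups at 3 h, to between 1784 and 5147 CPM, and was between 134 and 930.28 CPM at 72 h, whereas the groups kept a 13.6-fold spread in Ifitm1 and a 1.72-fold spread in Ifitm2 at 3 h. The spread in Ifitm1 uses the mean of the Csrp3 clusters at 3 h, 2294 CPM, which is 1489.5 CPM without mouse 3.

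Ifitm1 stayed highest in HSC-like cells and the Csrp3 clusters, and at 3 h and 24 h it moved less than Ifitm3 in every group. HSC-like cells held 1736, 1789.5, 1509.5 and 2188 CPM at 3 h, 1527, 1966, 1363.5 and 1687 CPM at 24 h and 1210.2, 1211, 1398 and 1274 CPM at 72 h. All treated mice lay above the control mice. The log2 fold changes of 0.72 ± 0.10 at 3 h (adjusted p = 4.15e-07) and 0.57 ± 0.10 at 24 h (adjusted p = 1.30e-04) passed the p threshold without reaching the fold threshold, and that of 0.22 ± 0.10 at 72 h passed neither (adjusted p = 0.331). At 3 h, 5 of 7 groups passed the p threshold, a count without a background, since the shares of all genes given here need both thresholds. The log2 fold changes ran from 0.46 to 1.16 over all 7, and only the Csrp3 clusters passed both (1.16 ± 0.25, adjusted p = 6.74e-04). Their level of 1571, 1171, 4708 and 1727 CPM shows that this call rests on mouse 3. Without it the mean was 1489.5 ± 287 CPM and the log2 fold change 0.48 (adjusted p = 0.0914).

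In myeloid progenitor-like cells, Ifitm1 stood at 78.3, 90.0, 100.05 and 123 CPM without IFNα, at 184, 192, 179 and 129 CPM after 3 h and at 183, 171, 249.99 and 140.4 CPM after 72 h. It was called at 72 h (1.08 ± 0.14, adjusted p = 4.25e-07), close to the fold threshold, and this call was lost without control mouse 1 (0.99), without the 72 h mouse 3 (0.89) or by DESeq2 (0.99). At 3 h it stayed below the fold threshold (0.94 ± 0.15, adjusted p = 1.46e-05). The makeup of this group changed alongside. Cluster 8, whose leading genes S100a8 and S100a9 belong to granulocytes, held 25.7% of the group's control cells and 7.17%, 9.12% and 9.7% of its cells after 3, 24 and 72 h, and held 6.56 CPM of Ifitm1 and 92.3 CPM of Ifitm3 in control. Without cluster 8 the log2 fold change of Ifitm1 was 0.83 at 72 h and 0.64 at 3 h, both below the fold threshold, while that of Ifitm3 was 2.26 at 3 h and 1.70 at 24 h. Within cluster 2, led by the granule genes Elane and Mpo, Ifitm1 was at 61.9 ± 10.5 CPM in control, 58.7 ± 11.4 CPM at 3 h and 89.5 ± 40.8 CPM at 72 h (mean over mice). Within cluster 4, led by the monocyte lineage genes F13a1 and Csf1r, it was at 182 ± 35.6, 239 ± 61.9 and 285 ± 68.8 CPM. The values of these single clusters use library size alone and are not on the scale of the group's values. The mice of cluster 2 overlapped between control (54.1 to 73.8 CPM) and 3 h (44.3 to 68.7 CPM).

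In erythroid progenitor-like cells the Ifitm1 values overlapped between control and every time point (log2 fold change 0.80 ± 0.44 at 3 h, adjusted p = 0.260). Without control mouse 2 that value became 1.92 at 3 h and 1.78 at 24 h, both past the thresholds. Over all kept cells Ifitm1 rose from 309 ± 13.3 CPM to 679 ± 175 CPM at 3 h (1.15 ± 0.13, adjusted p = 3.05e-07), a larger log2 fold change than in 6 of the 7 groups. The share of HSC-like cells among the kept cells was 7.15% in control and 12.5% at 3 h, that of the Hlf-Dntt clusters 19.9% and 30.3% and that of myeloid progenitor-like cells 28.5% and 15.1%, and in sums over all cells more cells of an Ifitm1-rich group and more Ifitm1 per cell cannot be told apart. Without the 3 h mouse 3 (939.97 CPM, against 566 to 623 CPM in the others), the log2 fold change was 0.94 and the call was lost. At 72 h the level over all cells was 541 ± 97.7 CPM (0.82 ± 0.13, adjusted p = 4.98e-05), below the fold threshold, where 1.7% of all genes rose.

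Ifitm2 passed the fold threshold in no group at any time point. HSC-like cells held 719.81, 708, 825 and 646 CPM at 3 h, overlapping the control mice, and the log2 fold change was 0.10 ± 0.08 (adjusted p = 0.569). The p threshold was passed in 3 of 7 groups at 3 h, the Hlf-Dntt clusters (0.22 ± 0.05), erythroid progenitor-like cells (0.63 ± 0.10, adjusted p = 1.15e-05) and the Csrp3 clusters (0.47 ± 0.08, adjusted p = 1.46e-05). The share of all genes that pass the p threshold alone was not taken, so this count has no background. The Csrp3 clusters, from 904, 928 and 938 CPM in control to 1107, 1107, 1402 and 1369 CPM at 3 h, did not overlap, whereas erythroid progenitor-like cells did. Over all cells the values at 3 h (863 to 913 CPM) lay above those in control (729 to 792 CPM), at a log2 fold change of 0.23 ± 0.03 (adjusted p = 8.09e-06).

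Ifitm6, the member with the fewest counts, was tested in 2 of the 7 groups and called in both at 3 h. Myeloid progenitor-like cells held 3.28, 5.14, 5.65 and 7.41 CPM in control and 10.9, 13.6, 4.45 and 12.3 CPM at 3 h (1.07 ± 0.29, adjusted p = 5.52e-03). The Flt3-Cpa3 cluster held 4.11, 1.65 and 4.43 CPM in control and 10.7, 3.89, 14.5 and 7.41 CPM at 3 h (1.56 ± 0.44, adjusted p = 0.0112). In both groups the values of 1 mouse at 3 h fell within the control range. These sums rest on 106 and 54 UMIs in myeloid progenitor-like cells and on 24 and 32 UMIs in the Flt3-Cpa3 cluster, and both calls depend on single mice. In myeloid progenitor-like cells the log2 fold change was 0.77 without cluster 8 (adjusted p = 0.0611), 0.87 without control mouse 1, and 0.96 and 0.92 without the 3 h mice 2 and 4. In the Flt3-Cpa3 cluster it was 1.23 without control mouse 2 (adjusted p = 0.0731). Without the 3 h mouse 1, 3 or 4, or with groups of at least 3 cells, Ifitm6 did not pass the filter on low counts in that cluster and was not tested, and after thinning to 5000 UMIs it passed in neither group. It thus entered the test in the Flt3-Cpa3 cluster through the 3 h mice, in which it was high, and that call is a description. Over all cells the level was 2.82 ± 0.43 CPM in control and 5.18 ± 0.74 CPM at 3 h (0.85 ± 0.18, adjusted p = 5.39e-04), below the fold threshold. In HSC-like cells 2 UMIs were seen at 3 h, both in mouse 3, and in erythroid progenitor-like cells 0 UMIs at 3 h, which allows up to 1.19 CPM.

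**Figure D3:**
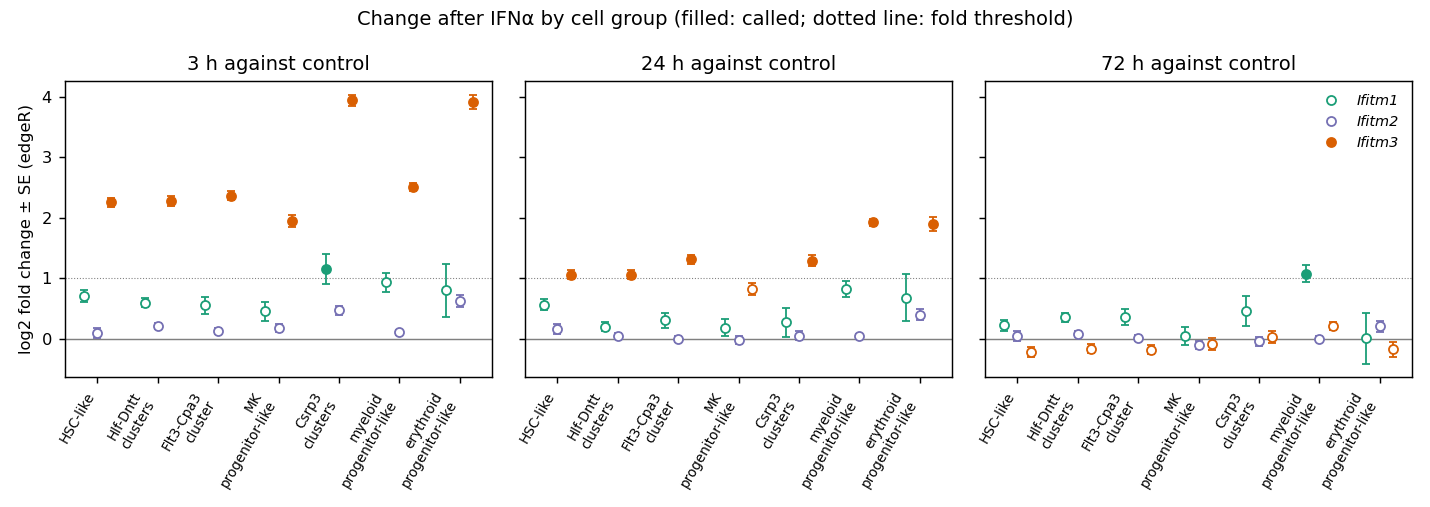
Log2 fold change of Ifitm1, Ifitm2 and Ifitm3 against control at 3, 24 and 72 h by cell group (vertical axis, log2 fold change of edgeR's fit; error bars, SE; filled points, called; dotted line, fold threshold). Ifitm3 was called in 7 of 7 groups at 3 h and in 6 at 24 h, Ifitm1 in the Csrp3 clusters at 3 h and in myeloid progenitor-like cells at 72 h, and Ifitm2 in none.

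Whether the change in a group differed from that in HSC-like cells was tested as an interaction of group and time point within mice (107 sums, 10622 genes, adjusted p under 0.05 with no fold threshold). There were 5 such differences, 4 of them for Ifitm3. Its rise at 3 h was larger than in HSC-like cells by 1.61 ± 0.14 on the log2 scale in erythroid progenitor-like cells (adjusted p = 1.36e-15) and by 1.68 ± 0.15 in the Csrp3 clusters (adjusted p = 1.13e-14). At 24 h it was larger by 0.89 ± 0.12 in myeloid progenitor-like cells (adjusted p = 6.77e-08) and by 0.82 ± 0.14 in erythroid progenitor-like cells (adjusted p = 3.96e-05). Without cluster 8 the difference in myeloid progenitor-like cells was 0.64 (adjusted p = 3.27e-04). The fifth was Ifitm2 in erythroid progenitor-like cells at 3 h (0.45 ± 0.10, adjusted p = 7.99e-03), and it was lost without control mouse 1 (0.40, adjusted p = 0.104), the 3 h mouse 2 (0.30, adjusted p = 0.185) or the 3 h mouse 4 (0.33, adjusted p = 0.125). With cells thinned to 5000 UMIs, 2 of the 5 were lost, those of erythroid progenitor-like cells in Ifitm2 at 3 h (0.43, adjusted p = 0.332) and in Ifitm3 at 24 h (0.64, adjusted p = 0.0783). For Ifitm3 at 3 h no difference was called in the Hlf-Dntt clusters (0.13 ± 0.12), the Flt3-Cpa3 cluster (0.13 ± 0.12), myeloid (0.28 ± 0.12) or MK progenitor-like cells (-0.32 ± 0.13). For Ifitm1 none was called, with SEs of the differences between 0.28 and 0.37. Without a filter on low counts, the difference in myeloid progenitor-like cells at 72 h was called for Ifitm1 (0.76, adjusted p = 1.02e-10) and for Ifitm3 (0.43, adjusted p = 9.82e-04), and by DESeq2 for Ifitm3 (0.50, adjusted p = 0.029). Ifitm6, at 0 UMIs in control HSC-like cells, gives no usable difference of the change.

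Genes whose change was called larger than in HSC-like cells were rare. At 3 h they made up 0.565% of all genes tested in erythroid, 0.433% in myeloid and 0.0565% in MK progenitor-like cells, 0.264% in the Csrp3 clusters, 0.141% in the Flt3-Cpa3 cluster and 0.00941% in the Hlf-Dntt clusters. At 24 h the shares were 1.41% in erythroid, 0.603% in myeloid and 0.0188% in MK progenitor-like cells, 0.0188% in the Csrp3 clusters, 0.0847% in the Flt3-Cpa3 cluster and 0.0188% in the Hlf-Dntt clusters. At 72 h no difference was called for Ifitm1, Ifitm2 or Ifitm3 in edgeR's fit with that filter. The ratio of the highest to the lowest group in Ifitm3 was 7.04 in control mice and 2.88, 4.01 and 6.96 after 3, 24 and 72 h. HSC-like cells were the highest group at each of these times.

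The baseline of stem cells was then set against the induced level of the other groups. This comparison spans cell groups as well as treatment. It was run for the 4 members only, so its counts have no share of all genes beside them. For Ifitm3, every other group at 3 h lay above the 1087 CPM of control HSC-like cells. The difference of the mean log2 CPM was 0.72 in myeloid, 1.00 in erythroid and 1.52 in MK progenitor-like cells, 1.28 in the Flt3-Cpa3 cluster, 1.93 in the Hlf-Dntt clusters and 2.09 in the Csrp3 clusters, for the group at 3 h minus control HSC-like cells. In all 6 the 3 control mice and the 4 mice at 3 h did not overlap. A two-sided exact permutation test gave p = 0.0286, the smallest p that 3 against 4 mice allow, and an adjusted p of 0.0429 over 24 comparisons. All 16 comparisons at that smallest p, over the 4 members, share this adjusted p, which depends on how many reach it. They also share the same 3 control mice, so they are not independent. The lowest of the 6 groups at 3 h, the mice of the myeloid progenitor-like group, held 1663 to 1872 CPM. These values use TMM factors and pool 3 clusters. Without the factors, control HSC-like cells held 1275.5 CPM (1138 to 1422). At 3 h, myeloid cluster 2 overlapped them at 1272.5 CPM (1129 to 1378). Cluster 4 lay above at 1892 CPM (1810 to 1964), and the 18 cells of cluster 8 lay below at a pooled 895 CPM.

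For Ifitm1 the order was the opposite in the committed progenitors. Control HSC-like cells, at 1102 CPM, lay above the 3 h level of myeloid (171 CPM), erythroid (169 CPM) and MK progenitor-like cells (354 CPM), by log2 differences of -2.69, -2.97 and -1.68 for the group at 3 h minus control HSC-like cells (adjusted p = 0.0429 each, exact permutation test). The Flt3-Cpa3 cluster at 3 h stayed lower at 545 CPM (-1.05, exact permutation p = 0.0571, adjusted p = 0.0762), and the Hlf-Dntt clusters reached 1035 CPM (-0.10, adjusted p = 0.620). The Csrp3 clusters stood at 2294 CPM (0.84, adjusted p = 0.0762). Control HSC-like mice held 999 to 1168 CPM. The 3 h mice of the Flt3-Cpa3 cluster (383 to 732 CPM) and of the Csrp3 clusters (1171 to 4708 CPM) did not overlap them. The test compares means, so a p above the smallest does not imply overlap. For Ifitm2 with TMM factors, the 3 h level of 5 of 6 groups lay above control HSC-like cells by 0.30 to 0.84 (adjusted p = 0.0429 each), and erythroid progenitor-like cells by 0.16 (adjusted p = 0.411). Without these factors, control HSC-like cells held 813.5 CPM (763 to 892). At 3 h, myeloid cluster 2 (720 CPM) and erythroid progenitor-like cells (702 CPM) had means below that range. The Flt3-Cpa3 cluster (836 CPM) and Hlf-Dntt clusters 3 and 5 (888 and 850 CPM) had means within that range. MK progenitor-like cells (984 CPM) and Csrp3 clusters 11 and 12 (1249 and 1180 CPM) had higher means. Ifitm6 was at 0 UMIs in control HSC-like cells and at 10.3 CPM in myeloid progenitor-like cells and 9.13 CPM in the Flt3-Cpa3 cluster at 3 h (adjusted p = 0.0429 each). With library size alone in place of TMM factors, 13 of the 24 comparisons gave the smallest p in place of 16, and none passed after adjustment.

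**Figure D4:**
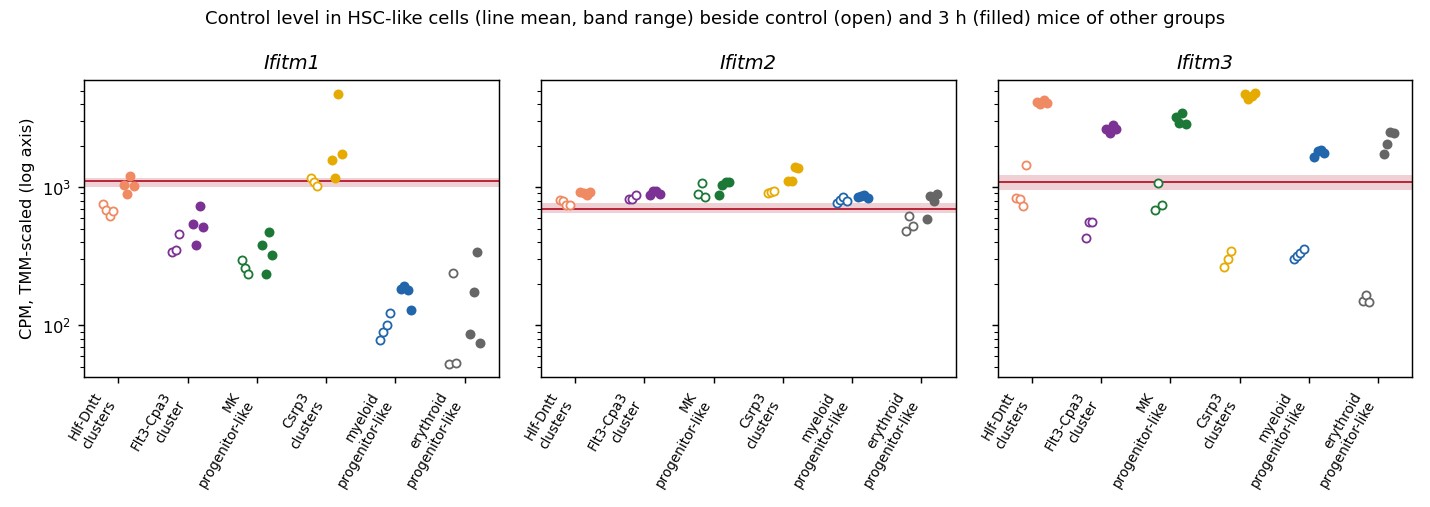
Control level in HSC-like cells (line, mean; band, range of 3 mice) beside the other groups in control mice (open points) and at 3 h (filled points), for Ifitm1, Ifitm2 and Ifitm3 (vertical axis, CPM with TMM-scaled library sizes, log axis). All filled points of Ifitm3 lie above the band around 1087 CPM. For Ifitm1 those of myeloid, erythroid and MK progenitor-like cells and of the Flt3-Cpa3 cluster lie below the band around 1102 CPM. Those of the Csrp3 clusters lie above it, the lowest at 1171 CPM beside an upper edge of 1168 CPM.

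The makeup of the family was given as each member's percent of the family's UMIs. In control HSC-like cells, Ifitm1 and Ifitm3 held like shares of the family's UMIs, 38.2 ± 0.38% and 37.7 ± 2.40%, with 24.1 ± 2.08% for Ifitm2 (n = 3). In myeloid and erythroid progenitor-like cells Ifitm2 was the main member, at 65.3 ± 2.19% (n = 4) and 67.7 ± 6.43% (n = 3), and in the Csrp3 clusters Ifitm1 was, at 46.9 ± 2.83% (n = 3). At 3 h Ifitm3 had the largest mean share in all 7 groups, from 58.2 ± 10.5% in the Csrp3 clusters to 69.8 ± 2.80% in erythroid progenitor-like cells (n = 4). In the Csrp3 clusters of mouse 3, Ifitm1 (4708 CPM) stood above Ifitm3 (4559 CPM). The summed level of the 4 members in HSC-like cells was 2882 ± 230 CPM in control mice and 7678 ± 166, 4699 ± 424 and 2911 ± 215 CPM after 3, 24 and 72 h. At 72 h, Ifitm1 made up 43.8 ± 0.65% and Ifitm3 31.9 ± 1.67% of the family in these cells.

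**Figure D5:**
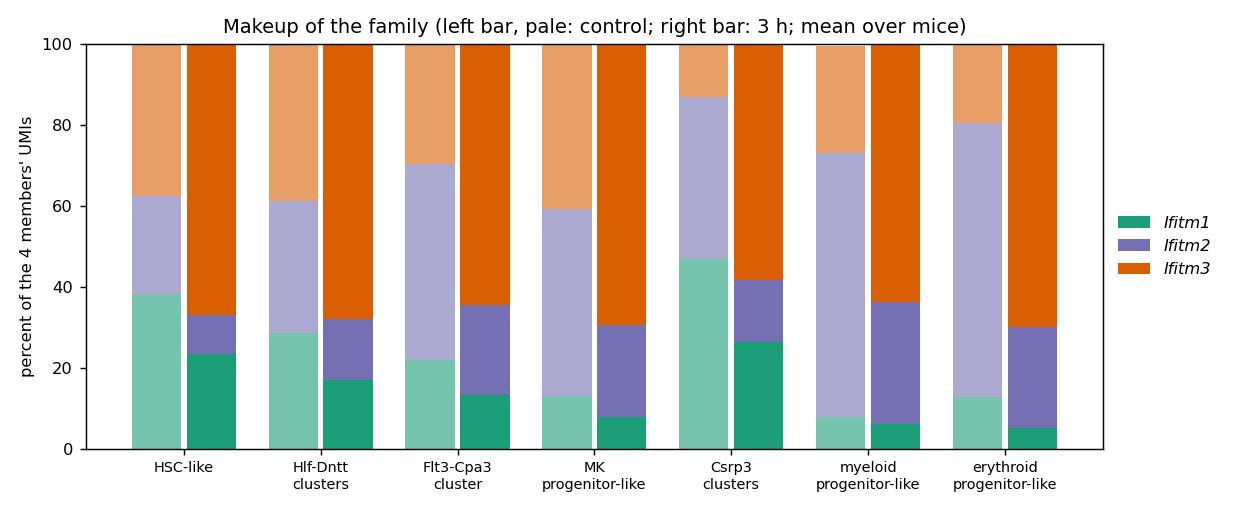
Percent of the 4 members' UMIs that each member held, by cell group (vertical axis, percent of UMIs; left and pale bars, control; right bars, 3 h; mean over mice; Ifitm6, at most 0.430%, is not visible at this scale). Ifitm3 went from 37.7% to 67.0% in HSC-like cells and from 19.5% to 69.8% in erythroid progenitor-like cells.

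Over single cells, Ifitm1 and Ifitm3 were spread differently. After every cell was thinned to 5000 UMIs (shallower cells left out, 10 of 177 control and 25 of 207 HSC-like cells at 3 h), Ifitm1 had at least 1 UMI in 93.7 ± 2.61% of control HSC-like cells, 29.4 ± 8.47% of myeloid and 21.2 ± 8.10% of erythroid progenitor-like cells. At 3 h these shares were 94.2 ± 2.69%, 38.6 ± 5.96% and 24.2 ± 14.9%. Without thinning, at median depths of 10150 (HSC-like), 34030 (myeloid) and 31120 UMIs (erythroid) in control, they were 93.4 ± 0.99%, 56.8 ± 3.61% and 32.4 ± 8.33%. In erythroid progenitor-like cells the median control cell had 0 Ifitm1 UMIs and the highest 90. Free RNA from other cells can add UMIs to any cell. In cluster 8 all 181 control cells together held 42 Ifitm1 UMIs (6.58 CPM pooled). That value covers only this gene, cluster and library. The part of free RNA in the shares given here, those of Ifitm3 at 3 h included, was not tested. Ifitm3, by contrast, was found at 3 h in nearly every cell. Its thinned share went from 51.4 ± 4.77% to 100% in erythroid progenitor-like cells, from 66.1 ± 5.18% to 100% in the Csrp3 clusters and from 62.8 ± 3.05% to 99.3 ± 0.84% in myeloid progenitor-like cells. In HSC-like cells it was 95.3 ± 1.76% and 98.2 ± 1.52%, while the median went from 6 to 27.5 of 5000 UMIs. Ifitm2 had at least 1 UMI in 90.1 to 98.4% of cells in the 7 groups in control.

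The other genes of the pathway were described from gene lists in HSC-like cells. These lists were chosen with earlier results of these data known. Their counts are therefore descriptions, for which the shares of all genes are no independent background. Of the 10 tested genes of interferon receptor and ISGF3 signalling, 7 rose at 3 h, 2 at 24 h and 0 at 72 h, and 0 fell at 3 h, where 0.923% of all genes tested fell. Their median log2 fold change at 3 h was 2.14, against -0.04 over all genes tested. The shares of all genes tested that rose were 4.76%, 0.449% and 0.321% at 3, 24 and 72 h. The largest rises in this list were those of Usp18 (4.67 ± 0.25, adjusted p = 5.63e-19) and Socs1 (3.59 ± 0.27), both inhibitors of interferon signalling, and Irf7 (4.13 ± 0.18), a transcription factor that drives interferon genes. The receptor chains Ifnar1 (-0.47 ± 0.27) and Ifnar2 (-0.01 ± 0.19) did not pass. Of 20 tested antiviral restriction factors, 19 rose at 3 h and 5 at 24 h, while 4 fell at 72 h (0.333% of all genes tested), with a median log2 fold change at 3 h of 3.72. The largest rises were those of the GTPase gene Mx1 (7.0 ± 0.37), Ifit3 (6.74 ± 0.26), whose product belongs to the RNA-binding IFIT proteins, and Rsad2 (5.43 ± 0.24), which encodes viperin. Ly6e, another membrane restriction factor, rose by 1.85 ± 0.08 and Bst2, the tether of budding viruses, by 2.89 ± 0.10. Of the 114 tested ISGs that had been left out of the clustering, 102 rose at 3 h and 6 fell at 72 h, the largest rises being those of the chemokine gene Cxcl10 (9.55 ± 0.59), of Ifit1bl1 (7.0 ± 0.43) and of Mx1.

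Genes whose products act on IFITM proteins gave no call. Of the 10 tested modifying enzymes and partners, 0 were called at any time point in HSC-like cells (median log2 fold change -0.08 at 3 h), among them Zdhhc20, a palmitoyltransferase (-0.59 ± 0.29, adjusted p = 0.211), Abhd16a, a depalmitoylase (0.35 ± 0.23), and Nedd4, a ubiquitin ligase (-0.16 ± 0.13). The 5 tested chromosome 7 neighbours outside the family were not called either (median -0.21 at 3 h), with Sigirr at -0.92 ± 0.31 (adjusted p = 0.0507) and Psmd13 at -0.21 ± 0.18. None of the 12 stem cell genes was called in these cells (median -0.12). Of all genes tested in HSC-like cells at 3 h, 4.76% rose and 0.923% fell. Counts of 0 in lists this short lie near those shares. Of the 10 other IFITM and dispanin genes, 9 were in the tables and 0 had enough counts in HSC-like cells to be tested. Over all cells 3 were tested and 0 called at 3 h, where 5.22% of all genes tested rose. They were Ifitm7 (-0.00 ± 0.20), Prrt1 (-0.11 ± 0.48) and Tmem91 (0.08 ± 0.15).

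Likeness of pattern was measured as Pearson's r of the mean log2 CPM over 16 points, the 4 named progenitor and stem classes at the 4 time points, which share libraries and mice. The 3 genes most like Ifitm3 were Epsti1 (0.971), H2-T22 (0.959) and Oasl2 (0.952), all on the list of ISGs. Those most like Ifitm1 were Gprc5b (0.980), Malat1 (0.977) and Trp53cor1 (0.975), none of them on that list. For Ifitm2 they were 4930519L02Rik (0.921), Gmds (0.894) and Akr1b3 (0.886), and for the sparse Ifitm6 Ttll9 (0.994), Gm29019 (0.994) and Rhou (0.989). Between members, r was 0.628 for Ifitm1 and Ifitm3, 0.562 for Ifitm2 and Ifitm3 and 0.077 for Ifitm1 and Ifitm2. Within single HSC-like cells the levels of Ifitm1 and Ifitm3 had an r of 0.448 in 177 control cells and 0.523 in 207 cells at 3 h. It was 0.536 in 705 myeloid progenitor-like control cells and 0.031 in 185 control cells of the Csrp3 clusters, values that also carry differences in depth between cells.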

How the data were processed

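Transcriptomes of sorted mouse bone marrow cells were measured with 10x Genomics 3′ v3.1 chemistry in 4 libraries, each with 4 hashtagged mice. UMI counts for each cell and gene were deposited by the authors, who made them with Cell Ranger 3.1.0 on mm10, beside tables of hashtag calls made in Seurat, whose other columns hold counts per cell. The gene annotation and the Seurat version are not given in the sources used here.

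Cells called multiplet or negative, with over 5% mitochondrial UMIs or under 700 genes were left out. Doublets within a mouse carry 1 hashtag and were removed only in an alternative (Scrublet scores). Control cells were clustered on the 500 most variable genes (scanpy 1.11.5, 10 principal components, 15 neighbors, Leiden resolution 0.8). Treated cells took the most common label of their 15 nearest control cells over the 2000 most variable genes per library after a mutual nearest neighbor correction; without that correction 90.4 to 92.9% of labels were the same. A cell type name needed markers from a fixed list. Counts were summed per mouse, or per mouse and group with at least 10 cells, so each mouse is 1 replicate. The sums were tested with edgeR 4.0.16 in R 4.3.3 (quasi-likelihood F test, filterByExpr, TMM factors, Benjamini-Hochberg adjustment over all tested genes). Calls needed an adjusted p below 0.05 together with a log2 fold change beyond 1 in size, and differences of changes the adjusted p alone. Fold changes are shrunk slightly by edgeR's prior count and can understate those of sparse genes. The SEs of edgeR's log2 fold changes were calculated back from the test. Each is the size of the log2 fold change divided by the square root of the F statistic. The difference of changes was fitted over all 7 groups, unnamed ones included, and over the named classes alone as an alternative. The comparison of control HSC-like cells with other groups at 3 h used an exact permutation test on log2 CPM (prior count 2). Limits on counts of 0 use 3 counts and cover counting error only. The tests were checked on simulated data.

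The named genes were the 4 members, the 3 genes most like each, and the 3 largest rises of each list in HSC-like cells at 3 h. Ifnar1, Ifnar2, Ly6e, Bst2, Zdhhc20, Abhd16a, Nedd4, Sigirr, Psmd13, Ifitm7, Prrt1 and Tmem91 were named for their roles after their values had been seen. The members and lists were chosen with earlier results of these data known. Sequences and gene positions came from RefSeq (GRCm38.p6) and GENCODE vM21, and all 4 members were matched in both. Hashtag numbers were not used to pair mice across time points. The residuals of same-numbered mice correlated at -0.058 to 0.095 and those of different numbers at -0.118 to 0.141. No pairing was seen in this way, which cannot exclude it. Alternatives were DESeq2 1.42.0, edgeR's likelihood ratio test, other size factors, no filter, thinning to 5000 UMIs, a replicate block, other definitions of stem cells, and each mouse left out.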

Additional observations from a re-analysis of the deposited data

Results flagged for a closer look

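In 108 groups of 4 mice, 11 held a mouse far from the other 3 (Dixon's criterion at the 95% level, which chance meets in about 1 of 20 groups of continuous values). A group in which 1 mouse holds UMIs and the other 3 hold none always meets it, so the 11 cannot be set against that rate. For Ifitm1, mouse 3 at 3 h stood at 939.97 CPM over all cells (566 to 623 CPM in the others) and at 4708 CPM in the Csrp3 clusters (1171 to 1727 CPM), and mouse 3 at 72 h at 1054.5 CPM in the Hlf-Dntt clusters (797 to 834 CPM). For Ifitm3, control mouse 4, with 12 cells, stood at 1438 CPM in the Hlf-Dntt clusters (728 to 830.19 CPM) and mouse 1 at 24 h at 578 CPM in the Csrp3 clusters (781 to 800.22 CPM). For Ifitm6, control mouse 3 stood at 3.46 CPM over all cells (2.54 to 2.67 CPM). The other 5 were single mice with 1 or 2 UMIs of Ifitm6 beside 3 mice with none, at 2.82 CPM (HSC-like, 3 h, mouse 3), 1.11 CPM (HSC-like, 24 h, mouse 4), 0.526 CPM (erythroid progenitor-like, 24 h, mouse 3), 1.93 CPM (MK progenitor-like, 3 h, mouse 3) and 3.56 CPM (Csrp3 clusters, 3 h, mouse 2).

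The change differed from that in HSC-like cells, by an interaction term, for Ifitm3 in erythroid progenitor-like cells (1.61 at 3 h and 0.82 at 24 h, log2), in the Csrp3 clusters (1.68 at 3 h) and in myeloid progenitor-like cells (0.89 at 24 h), and for Ifitm2 in erythroid progenitor-like cells (0.45 at 3 h).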

How the results depend on the processing

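Ifitm3 was called in all 7 groups at 3 h under every alternative run, with a log2 fold change of 2.05 to 2.37 in HSC-like cells. Calls, each of a member at a time point, changed in number by over 1.5 times as follows. HSC-like cells went from 2 to 1 thinned to 5000 UMIs (1 to 2 with a mouse left out). The Hlf-Dntt clusters went from 2 to 1 by DESeq2 (1 to 2 with a mouse left out). Myeloid progenitor-like cells went from 4 to 2 without cluster 8, an alternative added after the data had been seen (2 to 5 with a mouse left out). With a mouse left out, erythroid progenitor-like cells had 2 to 4 and MK progenitor-like cells 1 to 2. Differences of the change went from 5 to 3 when thinned. Of the comparisons with the baseline of stem cells, 16 passed, and 0 with library size alone, with labels set without correction, with stem cells set by markers (both also with library size alone) or with any mouse left out, where the design cannot pass (smallest p 0.0667 or 0.1). The log2 difference of Ifitm2 between HSC-like and myeloid progenitor-like cells in control, -0.16, turned to 0.09 with library size alone, 0.00 with stem cells set by markers and 0.09 thinned. The cause of these changes was not tested.

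Hashtag numbers were not used to pair the mice. The replicate block left the number of calls, each of a member at a time point, the same in each comparison. There were 2 in HSC-like cells, both of Ifitm3, and 3 over all cells. Without the mouse as a block 8 differences at baseline were called. The change was set against that in HSC-like cells in 18 pairs of group and time point, and only the 4 pairs in which a member was called were refitted without each mouse.

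Of 1620 single values under the other alternatives, 1527 kept their direction and side of the threshold, and 70 changed sign with an adjusted p of 0.05 or more in both fits. With a mouse left out, these were 1498 and 34 of 1551. Depth limits Ifitm6 (561 UMIs in all) and, with 3 control mice, the permutation tests.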
